A study of Mus musculus with 16 samples.

Results

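The Hippo pathway and its YAP target genes were followed in cultured mouse ovarian follicles through 9 genes: the target genes Ccn1, Ccn2, Ankrd1 and Amotl2, the kinases Lats1 and Lats2, the co-activators Yap1 and Wwtr1, and the DNA-binding factor Tead1. The members were all probe sets that the array annotation assigns to these genes and to no other gene, with the older symbols Cyr61 and Ctgf counted as Ccn1 and Ccn2. They made up 9 of 18193 genes with such a probe set and 23 of 45101 probe sets on the array, and 22 of the 23 lay over the filter on low signal. Preantral to small antral follicles of female C57BL/6Tac mice, aged 8 weeks per the sample labels, were cultured and hybridised to 16 one-colour Affymetrix arrays, 4 in each of 4 groups. The first group received 50 ng/ml recombinant anti-Müllerian hormone (AMH) for 24 h and its control group 0 ng/ml for 24 h. The other pair of groups received the same AMH dose, or none, for 12 h. Every culture, control cultures included, also held 80 IU/L FSH and 10 IU/L LH, so no group was free of gonadotropins. Each experiment drew its AMH and control cultures from 1 pool of follicles from 8 mice, and 1 sample held 6 to 9 whole follicles. An AMH array and the control array of the same number and time therefore form a pair. In AMH comparisons the p-values rest on how the difference within a pair varied between pairs. In time comparisons within an arm they rest on the spread of arrays within groups, with the pairing left out.

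Hippo signalling is a kinase cascade that restrains organ growth. MST kinases with their adaptor proteins activate the LATS kinases, which phosphorylate the co-activators YAP and TAZ (encoded by Yap1 and Wwtr1) and hold them in the cytoplasm. When LATS activity is low, for instance after loss of cell contact or on stiff substrate, YAP and TAZ enter the nucleus, bind TEAD factors and raise target genes such as Ccn1, Ccn2 and Ankrd1. Several targets feed back on the pathway: LATS2 is itself a kinase of the cascade, and AMOTL2 retains YAP outside the nucleus. In the mouse ovary, cutting the tissue is known to disrupt Hippo signalling and to promote follicle growth. Much of the control of YAP and TAZ acts on their phosphorylation, which mRNA arrays do not measure.

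Median signal per array was between 27.8 and 40.2 arbitrary units. Arrays of 1 group correlated at Pearson's r between 0.955 and 0.974 over all probe sets except the 64 array controls. Markers of the follicle passed the filter (mean log2 signal 4.18): 10 of 10 granulosa genes, 11 of 12 oocyte genes (all but Ddx4) and 4 of the 4 theca and steroidogenic genes that have a single-gene probe set, of 6 listed. Amh itself barely passed, at 4.21, and Figla (4.61) and Cyp17a1 (4.83) were also low. At 24 h, 2 arrays stood apart in oocyte markers, the AMH array of pair 1 with a summed signal of 5998 and the control array of pair 4 with 6576, while the other 6 arrays of that time lay between 1788 and 2848. In these pairs the AMH and control arrays deviated from their group means in opposite directions, with correlations of -0.44 in pair 1 and -0.29 in pair 4. At 12 h the control array of replicate 3 had the highest oocyte sum of all 16 arrays, 8591, and the control array of replicate 4 the lowest, 1589, against 2882 to 4694 in the other 6 arrays of that time. The control array of replicate 3 also had the lowest granulosa sum of the 16, 5651, against 9027 to 10627 in the other 3 control arrays at 12 h. Calls of members that rest on any of these arrays are also given without it.

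TEAD factors recognise the core GGAATG, which reads CATTCC on the opposite strand. The promoters below, 250 bases before to 50 bases after the RefSeq start in GRCm38.p6, are those of Wwtr1, the one member past the threshold for which the sequence table holds a promoter, and of 3 target genes. The targets were added with their values known, to show the letters through which YAP and TEAD are thought to reach them. Capitals mark the core on either strand.
Wwtr1 promoter, chr3:57575827-57576126, minus strand: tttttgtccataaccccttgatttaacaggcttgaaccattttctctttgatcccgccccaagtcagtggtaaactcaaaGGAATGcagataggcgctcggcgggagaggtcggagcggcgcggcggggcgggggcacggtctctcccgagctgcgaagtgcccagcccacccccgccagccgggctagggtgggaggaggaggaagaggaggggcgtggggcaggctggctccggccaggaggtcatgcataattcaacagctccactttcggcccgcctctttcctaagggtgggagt
Ccn1 promoter, chr3:145649936-145650235, minus strand: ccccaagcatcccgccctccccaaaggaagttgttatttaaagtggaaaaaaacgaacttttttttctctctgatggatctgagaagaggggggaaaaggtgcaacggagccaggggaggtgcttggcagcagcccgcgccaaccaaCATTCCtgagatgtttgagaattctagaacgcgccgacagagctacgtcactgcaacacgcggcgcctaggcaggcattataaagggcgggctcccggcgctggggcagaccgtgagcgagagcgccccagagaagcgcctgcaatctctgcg
Ankrd1 promoter, chr19:36119795-36120094, minus strand: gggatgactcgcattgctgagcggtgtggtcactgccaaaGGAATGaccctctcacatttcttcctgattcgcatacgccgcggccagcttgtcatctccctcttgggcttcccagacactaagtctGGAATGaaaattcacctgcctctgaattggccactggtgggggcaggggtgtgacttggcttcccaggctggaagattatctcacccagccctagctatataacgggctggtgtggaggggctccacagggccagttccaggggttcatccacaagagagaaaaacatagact
Amotl2 promoter, chr9:102717554-102717853, plus strand: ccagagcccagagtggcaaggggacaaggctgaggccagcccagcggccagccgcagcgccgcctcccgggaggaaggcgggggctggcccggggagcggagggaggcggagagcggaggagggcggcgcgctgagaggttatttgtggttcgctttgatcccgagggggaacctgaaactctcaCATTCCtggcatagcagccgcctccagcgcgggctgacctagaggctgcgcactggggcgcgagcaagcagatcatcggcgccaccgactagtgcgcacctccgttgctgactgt
The core lay 170 bases upstream of the Wwtr1 start shown (136 bases upstream of its other start in the table), 103 bases upstream of Ccn1, 210 and 123 bases upstream of Ankrd1 and 65 bases upstream of Amotl2. In the promoter table, 7 of the 9 members were found (all but Ccn2 and Tead1), and 6 of these 7 held at least 1 core. Over the whole table, 16.6% of 27025 genes and 14.7% of 32851 windows did. Lats1 held none, Yap1 held 1 core 141 bases upstream, and Lats2 held 1 core 5 bases downstream of 1 of its 2 starts. A match describes these letters and is not evidence of binding.

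Across culture time, the target genes Ccn2, Ccn1 and Ankrd1 had lower mean signals at 24 h than at 12 h in both arms, and Ccn2 fell in control follicles. Ccn2 encodes connective tissue growth factor, a secreted matricellular protein. Its signal was 74.4, 78.5, 106 and 102 in the AMH arrays at 24 h, against 368, 127, 172 and 165 at 12 h. In control follicles it was 88.7, 49.6, 62.9 and 60.4 at 24 h, against 126, 122, 526 and 168 at 12 h. In each arm the highest 24 h array lay below the lowest 12 h array, although 1 array at 12 h in each arm stood far above the other 3. In AMH-treated follicles the log2 change, 24 h minus 12 h, was -1.09 (SE 0.39, limma, adjusted p = 0.0972), 2.12-fold lower, and did not pass the threshold of 0.05. In control follicles it was -1.57 (SE 0.39, adjusted p = 0.0113), 2.96-fold lower at 24 h. The highest control array at 12 h, 526, is replicate 3, which stood apart in oocyte and granulosa markers, and without it the change was -1.09 (adjusted p = 0.0225). Because whole follicles were hybridised, fewer cells of a type and less RNA per cell cannot be told apart here or in any result that follows.

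Ccn1 encodes CYR61, a second matricellular protein of the same family. Its signal was 116, 113, 99.2 and 133 in AMH arrays at 24 h, against 612, 59.5, 168 and 156 at 12 h. In control follicles it was 88.6, 87.9, 82.9 and 69.8 at 24 h, against 136, 81.5, 272 and 252 at 12 h. The groups overlapped in both arms, since 1 array at 12 h in each arm was lower than at least 3 of those at 24 h. The change was -0.61 (SE 0.50, adjusted p = 0.497) in AMH-treated follicles and -1.01 (SE 0.50, adjusted p = 0.167) in control follicles, neither past the threshold. Its 3 probe sets over the filter all had changes below 0, between -1.62 and -0.47 in AMH-treated follicles and between -1.01 and -0.29 in control follicles. The probe set used for the gene is of the kind whose probes may also match other transcripts.

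Ankrd1 encodes a cardiac ankyrin repeat protein that is widely used as a readout of YAP activity. Its signal was 12.6, 9.36, 25.6 and 33.5 in AMH arrays at 24 h, against 37.0, 17.8, 109 and 66.1 at 12 h. In control follicles it was 24.3, 9.27, 31.3 and 24.1 at 24 h, against 24.1, 29.9, 37.8 and 42.3 at 12 h. The groups overlapped in both arms, and 3 arrays at 24 h lay below the filter level of 16.6. The change was -1.31 (SE 0.50, adjusted p = 0.113) in AMH-treated follicles and -0.64 (SE 0.50, adjusted p = 0.396) in control follicles. The outcome in AMH-treated follicles turned on 1 array: without the AMH 12 h array of replicate 2, the lowest of its group, the change was -1.76 and passed (adjusted p = 0.0314). Amotl2, which encodes an angiomotin family protein that binds YAP, differed little with time, by 0.13 (SE 0.24, adjusted p = 0.804) in AMH-treated follicles and 0.23 (SE 0.24, adjusted p = 0.553) in control follicles. It was the 1 member with changes above 0 in both arms.

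**Figure D1:**
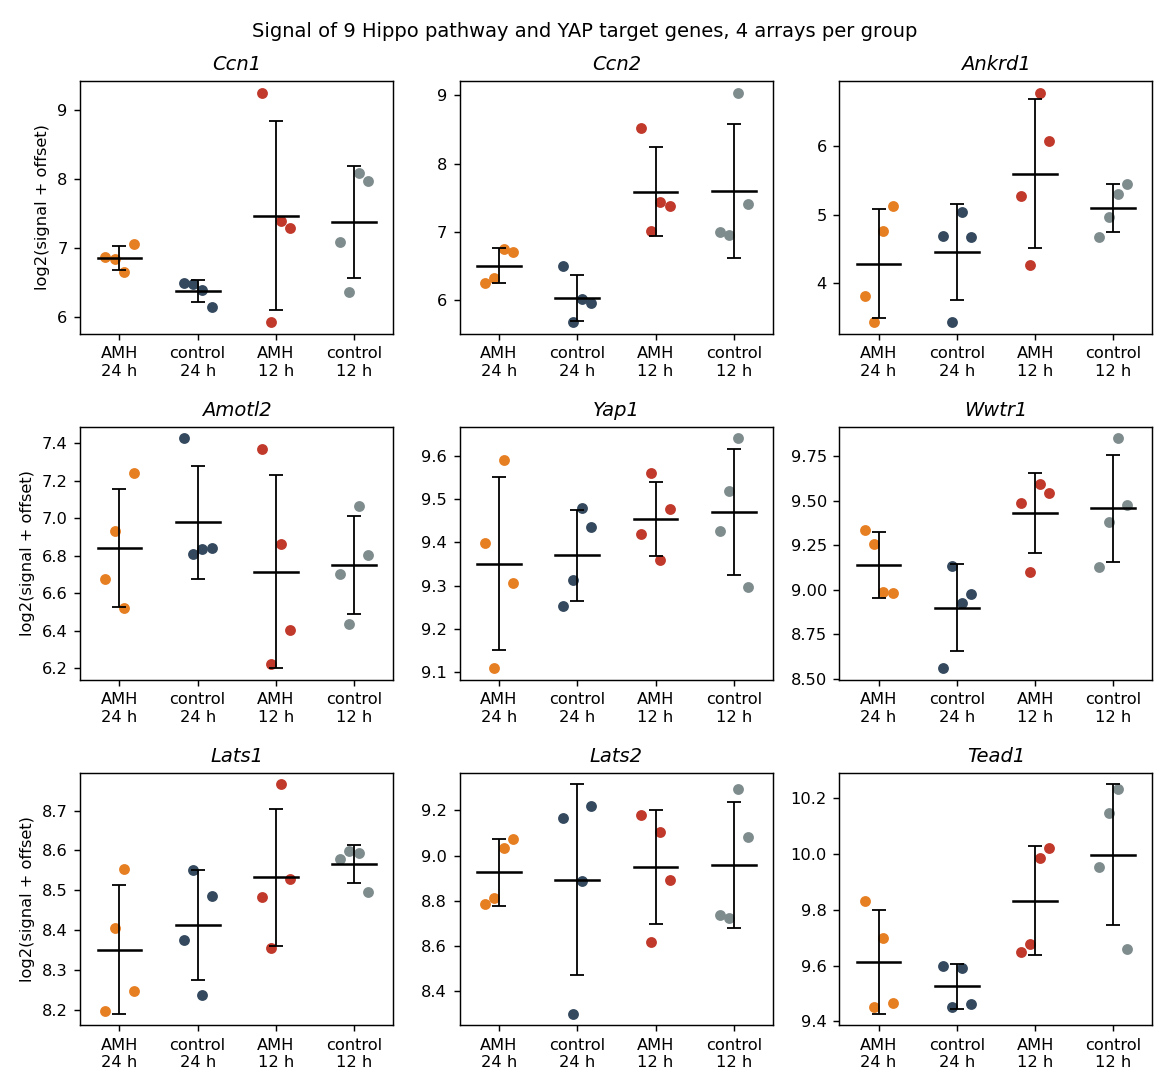
Signal of each member on each array as log2(signal + 1.46), in arbitrary units. Points are arrays in replicate order from left to right, bars are the group mean and 1 SD (n = 4), and each panel has its own vertical axis. Ccn2 lies lower at 24 h than at 12 h in both arms with no overlap, and Ccn1 spreads between 59.5 and 612 signal units at 12 h but between 69.8 and 133 at 24 h.

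The co-activator TAZ and the DNA-binding partner fell with time in control follicles, while YAP itself did not pass the test on the probe set used. The Wwtr1 signal was 644, 611, 505 and 504 in AMH arrays at 24 h, against 716, 547, 771 and 746 at 12 h. The control signal was 376, 561, 486 and 502 at 24 h, against 558, 665, 922 and 710.1 at 12 h. The AMH groups overlapped, and the control groups did so by a single array on each side. The change was -0.29 (SE 0.16, adjusted p = 0.292) in AMH-treated follicles and -0.56 (SE 0.16, adjusted p = 0.0239) in control follicles, 1.47-fold lower at 24 h. All 3 Wwtr1 probe sets lay lower at 24 h, with changes of -0.29, -0.48 and -0.56 in AMH-treated follicles and -0.56, -0.86 and -0.88 in control follicles. The call rested on 2 control arrays: it was lost without the 12 h array of replicate 3 (-0.43, adjusted p = 0.078) and without the 24 h array of replicate 1 (-0.44, adjusted p = 0.0785). The control 12 h array of replicate 3 is the one that stood apart in oocyte and granulosa markers, and it had the highest Ccn2, Wwtr1 and Tead1 signals of its group (526, 922 and 1199). The part of its granulosa content in these values was not tested. Without the control 12 h array of replicate 4, lowest in oocyte markers, Wwtr1 passed narrowly (-0.55, adjusted p = 0.0496).

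Tead1 encodes a TEAD factor through which YAP and TAZ bind DNA. Its signal was 909.7, 699, 829.8 and 706 in AMH arrays at 24 h, against 802, 817, 1011 and 1036 at 12 h. Control arrays had 774, 699, 769 and 704 at 24 h, against 988, 1129.7, 1199 and 808 at 12 h. The AMH groups overlapped, while all control arrays at 24 h lay below all those at 12 h. The change was -0.22 (SE 0.13, adjusted p = 0.333) in AMH-treated follicles and -0.47 (SE 0.13, adjusted p = 0.0201) in control follicles, 1.39-fold lower at 24 h. The second Tead1 probe set had changes of -0.45 in AMH-treated follicles and -0.56 in control follicles. The call was lost without the control 12 h array of replicate 2 (-0.42, adjusted p = 0.0591) or replicate 3 (-0.39, adjusted p = 0.0638).

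On the probe set used, Yap1 stayed within a narrow range on all 16 arrays. Its signal lay between 551 and 769 in AMH arrays at 24 h, against 655 to 754 at 12 h, and between 608 and 712 in control arrays at 24 h, against 627 to 796 at 12 h. The change was -0.10 (SE 0.11) in each arm, with an adjusted p of 0.622 in AMH-treated follicles and 0.555 in control follicles. The 95% interval in control follicles was -0.33 to 0.13. A dimmer Yap1 probe set had values of -0.27 in AMH-treated follicles and -0.45 in control follicles. With the mean of all probe sets, Yap1 passed in control follicles (limma, adjusted p = 0.0469), so its outcome there turned on the choice of probe set.

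The LATS kinases, which phosphorylate YAP and TAZ, did not pass the test in either arm. The Lats1 difference, 24 h minus 12 h, was -0.18 (SE 0.11, adjusted p = 0.358) in AMH-treated follicles, with signals of 292 to 374 at 24 h against 326 to 434 at 12 h. In control follicles it was -0.15 (SE 0.11, adjusted p = 0.371), with 300.4 to 374 at 24 h against 359.5 to 386 at 12 h. For Lats2, itself a YAP target, it was -0.02 (SE 0.19, adjusted p = 0.961) in AMH-treated follicles and -0.07 (SE 0.19, adjusted p = 0.847) in control follicles. The Lats2 signal ranged from 439 to 537 in AMH arrays at 24 h, against 391.8 to 579 at 12 h, and from 314 to 595 in control arrays at 24 h, against 422 to 626 at 12 h. The probe sets of each kinase disagreed in sign in AMH-treated follicles: Lats1 had 1 of 2 below 0 and Lats2 had 2 of 6. The Lats2 probe set used may also match other transcripts.

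In AMH-treated follicles 0 of the 9 members passed the adjusted threshold with time in limma, against 8.28% of the 12172 genes tested in either direction and 3.94% lower. An unadjusted p under 0.05 was found for 2 of 9, against 23.9% of genes. Ccn2 alone of the members had AMH groups without overlap, against 7.65% of genes lower without overlap and 15.1% in either direction. In control follicles 3 of the 9 passed, all lower at 24 h, against 19.1% of genes in either direction and 9.19% lower. The same 3 had an unadjusted p under 0.05, against 33.6% of genes. Ccn2 and Tead1 also had control groups without overlap, 2 of 9 members, against 10.9% of all genes in that direction and 22.3% in either. The median change of the members was -0.22 in AMH-treated follicles, against -0.02 over all genes, and -0.47 in control follicles, against -0.01 over all genes. In both arms 8 of 9 members lay below 0, and 39.9% of all genes did so in both. Among all genes called in control follicles 1212 were higher and 1118 lower, and with each array centred on its median these counts were 611 and 1885, with the median of all genes at -0.19. The 3 members kept their calls under that scaling, and also without the control 24 h array of replicate 4.

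The arms were not shown to differ in their change with time. The difference of the changes, AMH minus control, was 0.48 (SE 0.54, adjusted p = 0.950) for Ccn2, 0.27 (SE 0.21, adjusted p = 0.944) for Wwtr1 and 0.25 (SE 0.18, adjusted p = 0.941) for Tead1. For Ankrd1 it was -0.67 (SE 0.49, adjusted p = 0.941). A comparison of the mean of each pair of arrays, 4 pairs at 24 h against 4 at 12 h, was added after the values were seen. There 3 of the 9 members were again called, all lower, against 23.9% of genes in either direction and 11.8% lower. Ccn2 changed by -1.33 (SE 0.24, adjusted p = 0.00389), Wwtr1 by -0.42 (SE 0.11, adjusted p = 0.0233) and Tead1 by -0.35 (SE 0.09, adjusted p = 0.0255). Ccn1 changed by -0.81 (SE 0.35, adjusted p = 0.123) and Ankrd1 by -0.98 (SE 0.40, adjusted p = 0.102). Leaving out single pairs ended the call of Wwtr1 in 4 of 8 cases and of Tead1 in 2, and without pair 2 at 12 h Ccn1 passed (-1.24, adjusted p = 0.00113). This comparison uses the same 16 arrays and is no further evidence.

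**Figure D2:**
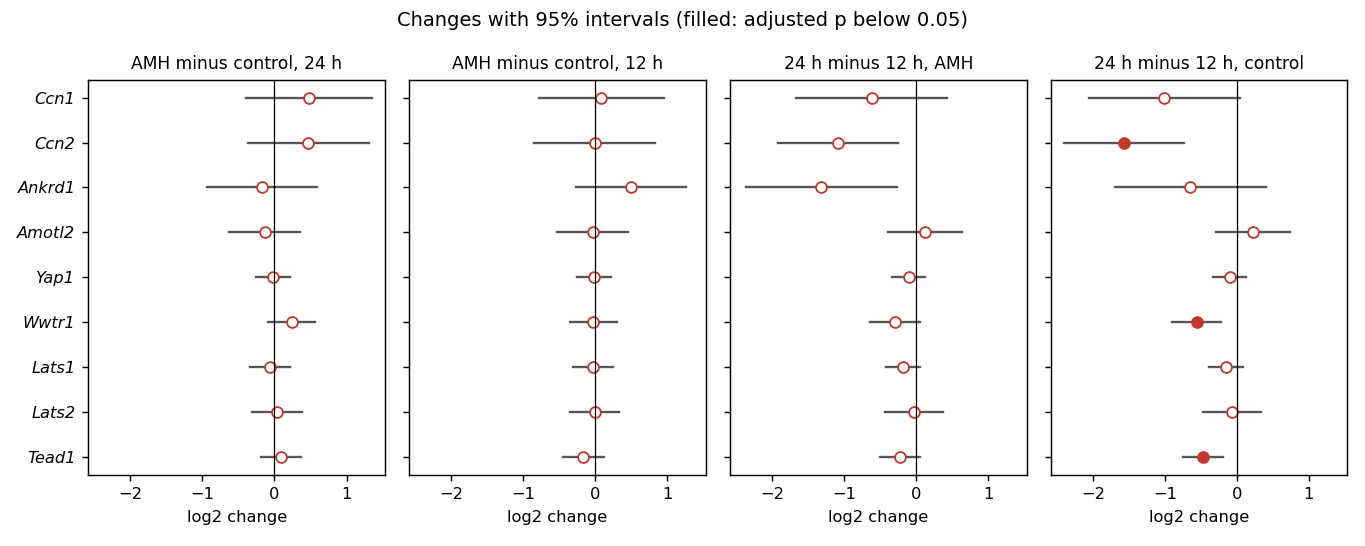
Log2 changes of the 9 members (points) with 95% intervals (bars) in 4 comparisons, n = 4 arrays per group. Filled points have an adjusted p below 0.05: Ccn2, Wwtr1 and Tead1 for 24 h minus 12 h in control follicles, at -1.57, -0.56 and -0.47.

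**Figure D3:**
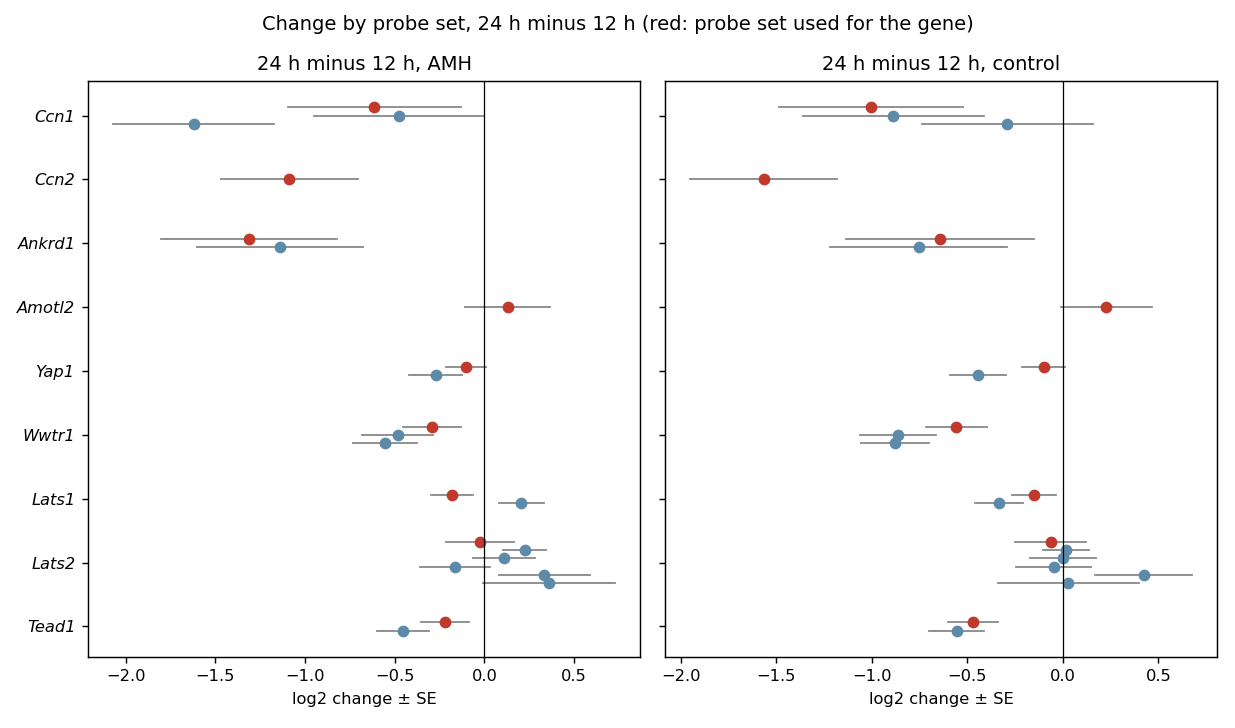
Log2 change, 24 h minus 12 h, of each of the 22 member probe sets over the filter (points) with its SE (bars), in AMH-treated and control follicles. Red marks the probe set used for the gene. The probe sets of Ccn1, Ankrd1, Wwtr1, Tead1 and Yap1 all lie below 0, and those of Lats2 lie on both sides.

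The other main comparison asked whether AMH, a hormone of granulosa cells that restrains follicle growth, altered these genes. None of the 9 members was called by limma between AMH-treated and control follicles at 24 h, against 0.0164% of genes (2 of 12172), nor at 12 h, against 0% of genes. On the probe sets used for the genes, no member had an unadjusted p under 0.05 at either time, against 4.07% of genes at 24 h and 6.47% at 12 h. Ccn1 was the 1 member whose groups did not overlap: at 24 h its AMH arrays (99.2 to 133) all lay above the control arrays (69.8 to 88.6). Across all genes 1.46% had higher AMH arrays without overlap at that time and 2.05% in either direction. At 12 h 0 of 9 members had groups without overlap, against 2.61% of genes. The Ccn1 change was 0.48 (SE 0.39, limma, adjusted p = 0.99998), higher in 4 of 4 pairs, by 0.38, 0.36, 0.25 and 0.91. The fit gave each gene 1 spread for both times, so this SE and p also hold the wider Ccn1 spread at 12 h. Ccn1 was called at 24 h under 0 of 12 alternatives that keep every array, among them a fit of the 24 h arrays alone. The change was 0.51 without pair 1 and 0.33 without pair 4. Of its other probe sets over the filter, 1 changed by 0.56 and 1 by -0.21. Stroma and smooth muscle markers lay higher with AMH at 24 h in 11 of 11, against 51.6% of all genes, with 1 called (Dpt, 1.82, adjusted p = 0.048). Their summed signals ran from 7245 to 10454 with AMH against 5929 to 8638 in controls. Endothelial markers lay higher in 7 of 7 (median 0.35), leukocyte markers in 4 of 4 (median 0.68) and granulosa markers in 7 of 10, none called. Oocyte markers lay lower in 10 of 11, theca and steroidogenic markers in 3 of 4 and surface epithelium markers in 4 of 7. At 12 h stroma and smooth muscle markers lay higher with AMH in 7 of 11, none called. Endothelial markers lay lower at that time in 6 of 7 (median -0.41), opposite to 24 h. Leukocyte markers lay higher in 4 of 4 and granulosa markers in 8 of 10. Oocyte markers lay lower in 9 of 11, theca and steroidogenic markers in 2 of 4 and surface epithelium markers in 6 of 7, again with none called. The part of these markers in the Ccn1 values was not tested.

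At 12 h the Ccn1 pairs went apart, with AMH minus control at 2.16 in pair 1 and at -0.45, -0.69 and -0.69 in pairs 2 to 4. The mean change was 0.08 (SE 0.39, adjusted p = 0.991), and without pair 1 it was -0.61. Its other probe sets over the filter changed by 0.15 and by 1.12 at that time, the second a dim one (limma, unadjusted p = 0.0321, adjusted p = 0.809 over all 23238 probe sets). The Ccn2 pairs also went apart at 12 h, at 1.53, 0.06, -1.61 and -0.02, with a mean of -0.01 (SE 0.38, adjusted p = 0.999). At 24 h Ccn2 was higher with AMH in 3 of 4 pairs, by 0.47 (SE 0.38, adjusted p = 0.99998), and by 0.71 without pair 1. The 95% interval for Ccn2 at 24 h was -0.37 to 1.31, from an SE that also holds the spread at 12 h.

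Ankrd1 was higher with AMH in 3 of 4 pairs at 12 h, by 0.50 on average (SE 0.35, adjusted p = 0.861), and in 2 of 4 at 24 h, by -0.17 on average (SE 0.35). Its pair changes at 12 h ran from -0.71 to 1.49. Wwtr1 was higher with AMH in 4 of 4 pairs at 24 h, by 0.24 (SE 0.15), with groups that overlapped, and by 0.06 without pair 1. Another Wwtr1 probe set changed by 0.27 at 24 h (unadjusted p = 0.0401, adjusted p = 0.99988 over all probe sets). At 12 h its change was -0.03 (SE 0.15, adjusted p = 0.993). Tead1 changed by 0.09 at 24 h and -0.16 at 12 h (SE 0.13 each), Amotl2 by -0.13 and -0.04 (SE 0.22 each), and Lats2 by 0.03 and -0.01 (SE 0.16 each). Yap1 changed by -0.02 at both times (SE 0.11), with 95% intervals of -0.25 to 0.21 at 24 h and -0.25 to 0.22 at 12 h. Lats1 changed by -0.06 at 24 h and -0.03 at 12 h (SE 0.12 each). Its other probe set, of similar brightness, did not follow: it changed by 0.19 at 24 h and -0.35 at 12 h (SE 0.11 each), the value at 12 h with an unadjusted p of 0.00924 and an adjusted p of 0.726 over all probe sets. Its difference of the effects was 0.54 (SE 0.16, unadjusted p = 0.00517, adjusted p = 0.737), so the Lats1 probe sets disagree. As the mean of both times, and as the difference between the times, 0 of 9 members were called and none had an unadjusted p under 0.05 on the probe set used, against 0% of genes called in each. Of all genes, 4.81% had an unadjusted p under 0.05 for the mean and 5.64% for the difference.

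**Figure D4:**
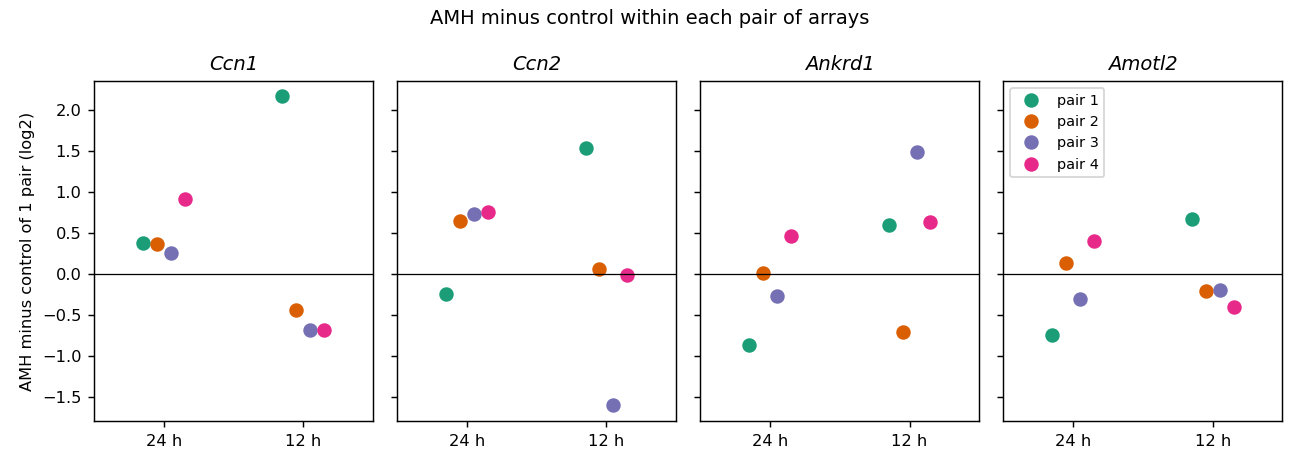
AMH minus control within each pair of arrays (log2) for the 4 target genes at 24 h and at 12 h, 1 point per pair of 1 follicle pool. All 4 Ccn1 pairs lie above 0 at 24 h (0.25 to 0.91), while at 12 h pair 1 lies at 2.16 and the other 3 lie below 0.

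Replicate arrays differed far more in Ccn1 and Ccn2 at 12 h than at 24 h. The SD of log2 signal pooled over both arms was 0.16 at 24 h against 1.12 at 12 h for Ccn1, a ratio of 0.146 that ranked 2 from the lowest of 12172 genes. For Ccn2 it was 0.30 at 24 h against 0.84 at 12 h, a ratio of 0.36 that ranked 300 from the lowest. The median ratio over all genes was 0.988. For Tead1 the ratio was 0.631, for Ankrd1 0.931, and for Yap1 1.33. These values were looked at after the spread had been seen and carry no test. The main limma fits held 1 spread per gene for both times, so the SEs of Ccn1 and Ccn2 pool these unequal spreads. The Ccn1 spread at 12 h came from high and low arrays in both arms: 612 and 59.5 were AMH arrays, and 272 and 81.5 were control arrays.

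The rest of the pathway was read through lists of its other genes. Of 22 upstream regulators, 21 were measured (no probe set for Stk3). In AMH-treated follicles 3 of the 21 fell with time and none rose, against 3.94% of all genes lower and 8.28% in either direction. They were Rassf1, a scaffold that binds the MST kinases (log2 change -0.88, adjusted p = 0.00645), the kinase gene Taok3 (-0.57, adjusted p = 0.0336) and the angiomotin gene Amotl1 (-0.49, adjusted p = 0.036). In control follicles 3 of 21 fell and none rose, against 9.19% of all genes lower and 19.1% in either direction. They were Rassf1 (-1.02, adjusted p = 0.00107), Wwc1, the adaptor KIBRA (-1.004, adjusted p = 0.0331), and Frmd6, a FERM domain gene (-0.46, adjusted p = 0.0423). Leaving out single arrays of the groups compared ended the call of Rassf1 in 0 of 8 cases in each arm, of Taok3 in 6 (-0.64 to -0.47), of Amotl1 in 7 (-0.53 to -0.46), of Wwc1 in 4 (-1.20 to -0.81) and of Frmd6 in 6 (-0.53 to -0.36). The Rassf1 signal lay between 185 and 263 in control arrays at 24 h and between 386 and 591 at 12 h. The list's median change was -0.16 in AMH-treated follicles and -0.09 in control follicles. Of 7 further TEAD genes and Vgll partners, 5 were measured (Vgll1 and Vgll2 were below the filter) and none of them but Tead4 was called with time. Tead4 passed the filter through its 12 h arrays alone, so it had to lie lower at 24 h and no change is given for it. Its signal lay between 4.78 and 16.0 in AMH arrays at 24 h, against 15.2 to 58.7 at 12 h, and between 1.82 and 13.5 in control arrays at 24 h, against 17.9 to 48.8 at 12 h, and all 24 h arrays lay below the filter level of 16.6.

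A published signature of 22 YAP/TAZ targets from human tumours was read through the mouse genes, and its called genes went both ways in control follicles only. In AMH-treated follicles 2 of 21 measured genes fell with time and none rose. Of all genes, 8.28% were called there in either direction, so this is near the background. The median change was -0.05, and Foxf2 was below the filter. The 2 genes that fell were F3, which encodes tissue factor (-1.21, adjusted p = 0.00974), and Myof, a membrane repair gene (-0.57, adjusted p = 0.0168). In control follicles 3 fell and 2 rose, 5 of 21 against 19.1% of all genes called, which is near the background, with a median of -0.07. Besides Ccn2, F3 (-1.17, adjusted p = 0.00598) and Myof (-0.44, adjusted p = 0.032) fell. Gadd45a, a stress and DNA damage gene, rose by 1.64 (adjusted p = 0.00279) and the kinase gene Nuak2 by 1.002 (adjusted p = 0.0114). Leaving out single arrays ended the Myof call in 1 of 8 cases in AMH-treated follicles and 5 of 8 in control follicles, and ended no call of F3, Gadd45a or Nuak2. The members Ccn1, Ccn2, Ankrd1, Amotl2 and Lats2 are part of this signature, so it is not separate from them.

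**Figure D5:**
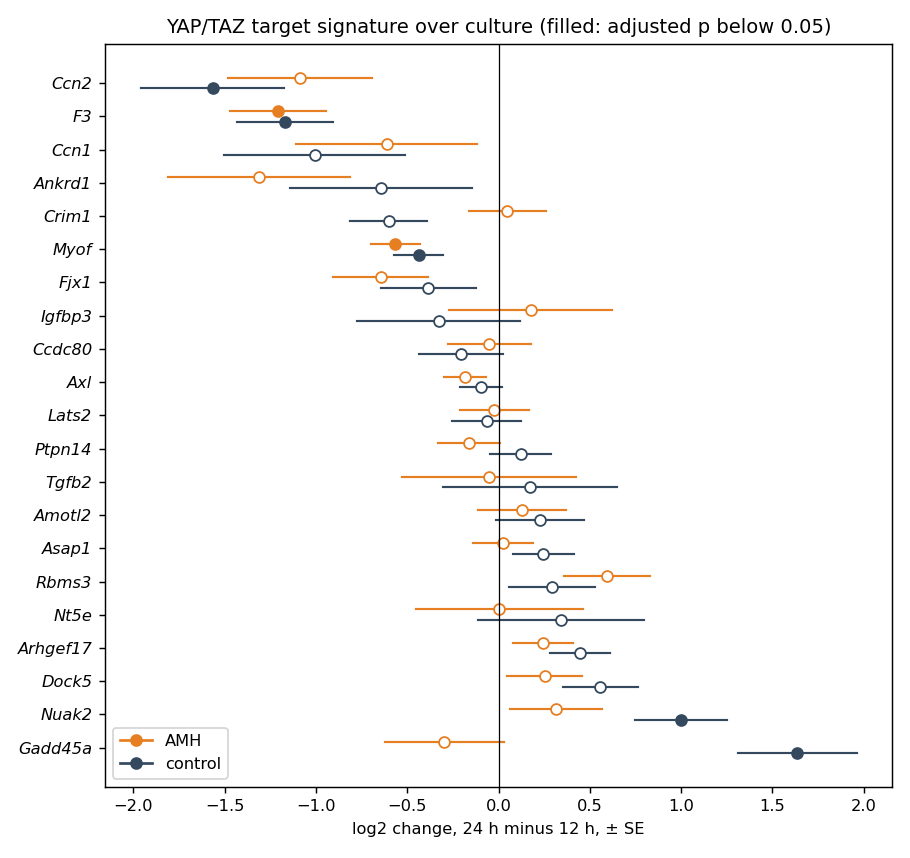
Log2 change, 24 h minus 12 h, of the 21 measured genes of the YAP/TAZ target signature in AMH-treated and control follicles (points, with SE as bars), ordered by the change in control follicles. Filled points have an adjusted p below 0.05. The signature runs from Ccn2 at -1.57 to Gadd45a at 1.64 in control follicles.

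Of the CCN family, 4 of 6 genes were measured (Ccn3 and Ccn6 were below the filter). In AMH-treated follicles 1 of the 4 fell with time and none rose, against 8.28% of all genes called in either direction. In control follicles 2 fell and 1 rose, against 19.1% of all genes called. Ccn4, a WNT-induced secreted protein gene, fell with time in AMH-treated follicles (-1.003, adjusted p = 0.0433, lost in 5 of 8 leave-outs) and in control follicles (-1.25, adjusted p = 0.00756). Ccn5 rose by 1.93 (adjusted p = 0.0285, lost in 4 of 8 leave-outs) in control follicles, while Ccn2 and Ccn4 fell there. In AMH-treated follicles Ccn5 did not rise (-0.34, limma, adjusted p = 0.782). The difference of its changes, AMH minus control, was -2.27 and did not pass (adjusted p = 0.531). Of 13 actin and serum response factor genes, 12 were measured (Cnn1 was below the filter). In AMH-treated follicles 2 of the 12 rose with time and 1 fell, against 8.28% of all genes called. In control follicles 1 rose and 1 fell, which is near the 19.1% of all genes called. Myl9, a myosin light chain gene, rose by 1.65 (adjusted p = 0.00344) in AMH-treated and 2.08 (adjusted p = 0.000348) in control follicles. Flna, which encodes the actin cross-linker filamin A, fell by 0.35 in AMH-treated and 0.41 in control follicles, and Fhl1 rose by 0.91 in AMH-treated follicles. In AMH-treated follicles the call of Flna was lost in 5 and that of Fhl1 in 6 of 8 leave-outs.

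Between AMH and control follicles, no gene of these lists was called by limma at either time, and at most 2 genes of a list had an unadjusted p under 0.05. The smallest adjusted p was that of Gadd45a, at -0.79 (SE 0.22, adjusted p = 0.813) at 24 h and 1.14 (SE 0.22, adjusted p = 0.277) at 12 h. The difference of its effects, 24 h minus 12 h, was -1.93 (adjusted p = 0.21). The genes with the smallest p at 24 h were, by list, Amotl1 (-0.25) and Wtip (-0.38) among the regulators, Vgll3 (0.53) and Vgll4 (0.26) among the TEAD partners, Nuak2 (-0.74) beside Gadd45a in the signature, Ccn5 (-0.56) and Ccn2 in the CCN family, and Actb (-0.11) and Fhl2 (0.30) among the actin genes. At 12 h they were Mob1a (-0.27) and Fat4 (-0.57), Vgll4 (-0.31) and Tead2 (-0.18), Crim1 (-0.30) beside Gadd45a, Ccn5 (1.71, adjusted p = 0.479) and Ccn4 (-0.13), and Srf (0.43) and Myl9 (0.38). None of these values is past the threshold.

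Markers of several cell types moved with culture time as well. Of all genes, 8.28% were called with time in AMH-treated follicles (3.94% lower) and 19.1% in control follicles (9.19% lower). Of 11 measured stroma and smooth muscle genes (Des was below the filter), all 11 lay higher at 24 h in both arms, 4 called in AMH-treated and 7 in control follicles. Their summed signal was 7245 to 10454 in AMH arrays at 24 h, against 4249 to 6407 at 12 h, and 5929 to 8638 in control arrays at 24 h, against 2192 to 5758 at 12 h. Granulosa markers summed to 11770 to 20668 in AMH arrays at 24 h, against 6263 to 13036 at 12 h, with 3 of 10 called higher and none lower. In control arrays they summed to 11982 to 18386 at 24 h, against 5651 to 10627 at 12 h, with 6 of 10 called higher and none lower. Amh, 1 of the 10 and close to the filter, lay lower in both arms. It changed by -1.56 in AMH-treated (limma, adjusted p = 0.052) and -1.08 in control follicles (adjusted p = 0.121). Over the means of pairs Amh was called lower (-1.32, adjusted p = 0.00625). Of 4 measured leukocyte genes (Ptprc and Adgre1 were below the filter), 1 fell in AMH-treated follicles, with sums of 227 to 591 at 24 h against 301 to 918 at 12 h. In control follicles 2 leukocyte genes fell, with sums of 174 to 272 at 24 h against 469.5 to 838 at 12 h. The leukocyte list went both ways in AMH-treated follicles, with 2 of 4 below 0, and lay below 0 in 4 of 4 in control follicles. Of 7 endothelial genes, none was called in AMH-treated follicles and 1 fell in control follicles, and of 4 theca and steroidogenic genes 1 rose in each arm. In control follicles these counts of calls are near the share of all genes called. All 7 endothelial genes lay lower at 24 h in control follicles (median -0.62), where 48.6% of all genes lay above 0. In AMH-treated follicles 4 of the 7 lay lower (median -0.12). Of 7 surface epithelium genes, 2 fell in each arm, Krt8 and Krt18, which are the brightest and weigh most in the sums. The sums were 2175 to 3446 in AMH arrays at 24 h against 3894 to 6144 at 12 h. In control arrays they were 2604 to 4819 at 24 h against 4361 to 7042 at 12 h. The list went both ways, with 5 of 7 below 0 in AMH-treated and 6 of 7 in control follicles. Upk3b lay higher by 1.28 in AMH-treated (limma, adjusted p = 0.156) and 1.29 in control follicles (adjusted p = 0.104). Over the means of pairs Upk3b was called higher (1.29, adjusted p = 0.0394). No oocyte marker was called with time in limma (0 of 11 at an unadjusted p under 0.05 in each arm). The part of these shifts in the changes of Ccn2, Wwtr1 and Tead1 was not tested. With the oocyte marker mean in the fit, these 3 members kept their calls in control follicles. The other marker lists, which hold the genes called with time, were not put in a fit.

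Among the members, log2 signals of Ccn1 and Ccn2 correlated at r = 0.794 and those of Ccn2 and Wwtr1 at 0.715 over the 16 arrays, which share pools and times. Among all other genes tested, those with patterns most like Ccn2 were Snhg6 (r = 0.935), Yy1 (0.904) and Dnm2 (0.901). Those most like Ccn1 were Fhl2 (0.875), Pdap1 (0.845) and Nr4a1 (0.821). For Ankrd1 they were Agfg1 (0.928), Pnp (0.902) and Usp14 (0.887), and for Amotl2 Cask (0.860), Prss23 (0.815) and Megf9 (0.806). Wwtr1 ran closest to Nip7 (0.929), Trmt61a (0.922) and Gcsh (0.910), and Tead1 to Ube2q2 (0.897), Ptbp1 (0.891) and C430002N11Rik (0.888). The highest likeness was lowest for Yap1, at 0.777 with Elovl4, before Cdc7 (0.760) and Ticrr (0.755). For Lats1 the genes were Pnpt1 (0.864), Avil (0.826) and Adamts3 (0.826), and for Lats2 Lamtor5 (0.894), Ric1 (0.886) and Hnrnpr (0.857). These values describe 16 arrays and carry no test.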

How the data were processed

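Signal intensities per probe set were deposited by the authors as MAS5 values, per the submitters' processing notes; version, detection calls and genome build are not given in the sources used here. Each array's mean, trimmed by 2% at each end, was 150. Probe sets of several genes (932) or none (9160) were left out, 1 shared by Lats2 included.

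Values were taken as log2(signal + 1.46), the 10th percentile being the offset, which understates changes of low signals. Genes under the 40th percentile of mean log2 (4.18) were left out, and each gene was read from its probe set of highest mean, 12172 in all. limma 3.58.1 in R 4.3.3 (lmFit, eBayes with trend) was fitted over 16 arrays, adjusted by Benjamini-Hochberg over all genes, threshold 0.05. AMH contrasts held 8 pairs as blocks, since the labels give both arms of an experiment 1 pool (correlations within pairs -0.44, 0.33, 0.20 and -0.29 at 24 h, and 0.30, 0.35, 0.56 and 0.21 at 12 h). Time contrasts compared 4 group means.

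The members and lists were chosen with earlier results of these data known. Named per list were up to 6 genes past the threshold or the 2 of smallest p, and 3 genes of likest pattern per member; for AMH, those 2 are given for the single times. Promoters are RefSeq's, matched by symbol. Alternatives were the offset, filters, scalings, probe set choice, array weights, an oocyte covariate, blocks and leaving out arrays. The procedure was tested on simulated data. The number of arrays limits the precision.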

Additional observations from a re-analysis of the deposited data

Results flagged for a closer look

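Amotl2, the angiomotin gene that is also a YAP target, had 1 array far from the others of its group. In control follicles at 24 h the signal of replicate 1 was 170.65, against 111 to 113 in the other 3 arrays. Of 36 groups of 4 arrays looked at (9 genes in 4 groups), this was the 1 so marked, and chance marks about 1 in 20.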

How the results depend on the processing

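For time in AMH-treated follicles, 2 members were called with array weights (Ccn2, adjusted p = 0.0306, and Ankrd1, adjusted p = 0.0292) and 1 with the replicate number as a block (Ankrd1, adjusted p = 0.0213), which also called Ankrd1 over pairs (adjusted p = 0.013). For time in control follicles, Ccn2 (-1.75 to -1.22) and Tead1 stayed called under all 12 alternatives that keep every array. Wwtr1 stayed called under 11 and was lost when only the groups compared were fitted (adjusted p = 0.0528), while Yap1 passed with the mean of all probe sets (-0.27, adjusted p = 0.0469) and Lats1 with array weights (-0.27, adjusted p = 0.0381). The labels do not tie 12 h to 24 h cultures of a number, and their deviations correlated between -0.41 and 0.25. Without the pair block, 0 of 9 members were called in each AMH comparison, as with it. Leaving out arrays, the members called numbered 0 to 0 for each AMH comparison, 0 to 1 for time in AMH-treated follicles, 1 to 3 in control follicles (1 without replicate 3 at 12 h) and 1 to 4 over pairs.

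Over all genes, calls for time in AMH-treated follicles were 1008, against 567 with median centring, 1857 with array weights and 516 without AMH replicate 3 at 12 h. In control follicles they were 2330, against 3945 with array weights. With every probe set on its own the unit was the probe set, and of 23238 tested 1566 (6.74%) were called in AMH-treated follicles, against 8.28% of genes, and 3673 (15.8%) in control follicles, against 19.1% of genes. For AMH at 24 h they were 2, against 0 to 7, at 12 h 0, against 0 to 3, over both times 0, against 0 to 6, and for the difference of the effects 0, against 0 to 21 (the highest with array weights). Median centring moved the median of all genes to 0.12 for AMH at 24 h, 0.15 for the difference of the effects and -0.19 for time in control follicles.

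The other changes of sign all concerned changes that did not pass the threshold on either side, and the cause was not tested. With array weights, the log2 change was for AMH at 24 h Lats1 0.078, for AMH at 12 h Ccn2 0.084 and Lats2 0.0052, for AMH over both times Lats1 0.013, for the difference of the AMH effects Lats1 0.13, for time in control follicles Lats2 0.052. With the oocyte covariate, the log2 change was for AMH at 24 h Yap1 0.0047, for AMH at 12 h Yap1 0.0081 and Wwtr1 0.0039, for AMH over both times Yap1 0.0064 and Lats2 -0.0061, for time in AMH-treated follicles Lats2 0.0069. With quantile scaling, the log2 change was for AMH at 24 h Lats2 -0.0042, for AMH over both times Lats2 -0.0067. With median centring, the log2 change was for AMH at 24 h Yap1 0.10 and Lats1 0.055, for AMH over both times Yap1 0.022 and Tead1 0.0017, for the difference of the AMH effects Amotl2 0.055, Yap1 0.15 and Lats1 0.12. With the mean of all probe sets, the log2 change was for AMH at 24 h Yap1 0.062 and Lats1 0.066, for AMH over both times Yap1 0.019 and Lats2 -0.021, for the difference of the AMH effects Ccn1 -0.18, Yap1 0.086 and Lats1 0.26, for time in AMH-treated follicles Lats1 0.012 and Lats2 0.14, for time in control follicles Lats2 0.059.

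Leaving out single arrays or pairs also turned signs, with these ranges. AMH at 24 h ran over Amotl2 -0.31 to 0.071, Ankrd1 -0.38 to 0.063, Lats2 -0.13 to 0.17 and Yap1 -0.074 to 0.042. AMH at 12 h ran over Amotl2 -0.27 to 0.085, Ccn1 -0.61 to 0.34, Ccn2 -0.52 to 0.52, Lats1 -0.10 to 0.037, Lats2 -0.16 to 0.050, Wwtr1 -0.16 to 0.058 and Yap1 -0.082 to 0.072. AMH over both times ran over Ccn1 -0.049 to 0.45, Lats1 -0.14 to 0.0014, Lats2 -0.053 to 0.071, Tead1 -0.11 to 0.026, Wwtr1 -0.047 to 0.18 and Yap1 -0.047 to 0.0047. The difference of the AMH effects ran over Amotl2 -0.40 to 0.34, Ccn1 -0.0093 to 1.12, Ccn2 -0.14 to 1.23, Lats1 -0.085 to 0.052, Lats2 -0.15 to 0.33 and Yap1 -0.14 to 0.10. Time in AMH-treated follicles ran over Amotl2 -0.035 to 0.35 and Lats2 -0.13 to 0.054. Time in control follicles ran over Lats2 -0.17 to 0.13. Time over pairs ran over Lats2 -0.14 to 0.074.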
